A study of Mus musculus with 6 samples.

Results

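The genes described here are the growth hormone, STAT5 and IGF axis of mouse liver: the receptor gene Ghr, the kinase gene Jak2, the transcription factor genes Stat5a and Stat5b, the feedback genes Cish, Socs2 and Socs3, the repressor gene Bcl6, and the secreted outputs Igf1 and Igfals. They were chosen by name, as the rows of the deposited count table that carry these 10 symbols, of 20107 genes in all, and all 10 passed the filter on low counts. RNA was sequenced from whole liver of 6 wild type C57BL/6N males, described as littermates and aged 16 weeks at collection. From the age of 8 weeks, 3 of them ate ordinary chow (Chow, replicates 7, 8 and 9) and 3 ate a diet rich in fat, calories and fructose with a high-fructose drink (HFHC, replicates 1, 2 and 3), in both cases for 8 weeks. The labels give no time of day and no feeding state at collection. Each library is 1 animal, so the tests set diet differences against the spread between animals on the same diet. The labels do not say which animals shared a litter.

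Growth hormone released by the pituitary binds its receptor on hepatocytes, the associated kinase JAK2 phosphorylates STAT5A and STAT5B, and these enter the nucleus and induce target genes. Among the known targets are Igf1, the main source of circulating insulin-like growth factor 1, Igfals, whose product holds IGF1 in a long-lived complex in blood, and the fast feedback genes Cish and Socs2. Male rodents release the hormone in separated pulses, so hepatic STAT5 is active intermittently, and BCL6 is a repressor that can bind the same DNA elements as STAT5 and is itself lowered by STAT5 signalling.

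The 6 libraries held 26767416 to 30871297 counts, so that 3 counts stood for 0.0954 to 0.114 CPM (counts scaled to library size with TMM factors), a floor that covers counting error only. Of 14896 genes tested, 503 rose and 491 fell on the HFHC diet (called where the adjusted p was below 0.05). Hepatocyte markers made up most of the marker signal, with summed levels over 10 genes of 93445 to 95706 CPM on HFHC against 87656 to 107946 CPM on Chow. On the second principal component, which held 16.8% of the variance, Chow replicate 8 lay at -32.13 and the other Chow libraries at 12.49 and 12.13, and values without it are given beside results that it moves.

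The sequences at the start sites are shown because STAT5 and BCL6 are both known to bind the element TTCNNNGAA, which reads the same on both strands. RefSeq start windows on GRCm38.p6, from 250 bases before to 50 bases after a start, were matched for 9 of the 10 genes. Capitals mark matches to TTCNNNGAA, and each stretch is written 5′ to 3′ on the strand of its gene. The Cish stretch lies in an exon of the GENCODE M21 annotation. The others lie outside exons, all within the span of their gene except the second Bcl6 stretch, which lies upstream of it.
Cish, chr9:107296655-107296683, plus strand: agttTTCCTGGAAagTTCTTGGAAatctg
Bcl6, chr16:23981343-23981471, minus strand: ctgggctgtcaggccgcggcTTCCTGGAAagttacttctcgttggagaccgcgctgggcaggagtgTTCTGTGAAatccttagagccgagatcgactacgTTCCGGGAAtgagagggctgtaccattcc
Bcl6, chr16:23988937-23988995, minus strand: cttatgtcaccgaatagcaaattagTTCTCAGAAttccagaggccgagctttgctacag
Socs3, chr11:117969472-117969560, minus strand: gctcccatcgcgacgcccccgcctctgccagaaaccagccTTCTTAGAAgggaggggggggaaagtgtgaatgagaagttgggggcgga
Igfals, chr17:24878163-24878191, plus strand: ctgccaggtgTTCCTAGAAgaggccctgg
Igfals, chr17:24877598-24877626, plus strand: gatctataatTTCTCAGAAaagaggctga

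Cish held 2 matches, which began at bases 1 and 12 after its start site. Bcl6 held 3 matches in the window of its inner start, at positions -168, -122 and -88, and 1 in the window of its outer start, at -118. Socs3 held 1 match at -154, and Igfals held 1 in each of 2 of its 3 windows, at -58 and -236. Over all 32851 windows of 300 bases, 8.30% held at least 1 match, 0.457% at least 2 and 0.0335% at least 3. The windows of Ghr, Jak2, Stat5a, Stat5b and Igf1 held none, which says only that these letters are not in those windows. A match is a description of the letters and does not show binding.

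Between the diets, Igf1 was lower in HFHC liver, and it was the only 1 of the 10 genes called: 1 was called lower and 0 higher, where 3.30% of all tested genes were called lower, 3.38% higher and 6.67% in either direction. At an unadjusted p below 0.05 the count was also 1 of 10, beside 3314 of all 14896 tested genes. The median log2 fold change of the 10 genes was -0.07, beside 0.00 for all tested genes. The libraries of the diets did not overlap for 2 of the 10, Ghr and Igf1, both with HFHC lower; of all tested genes, 27.8% did not overlap, and 14.3% did not overlap and had HFHC lower. The 4 genes Cish, Bcl6, Socs3 and Socs2 showed another pattern, a wide spread between mice on the same diet.

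**Figure D1:**
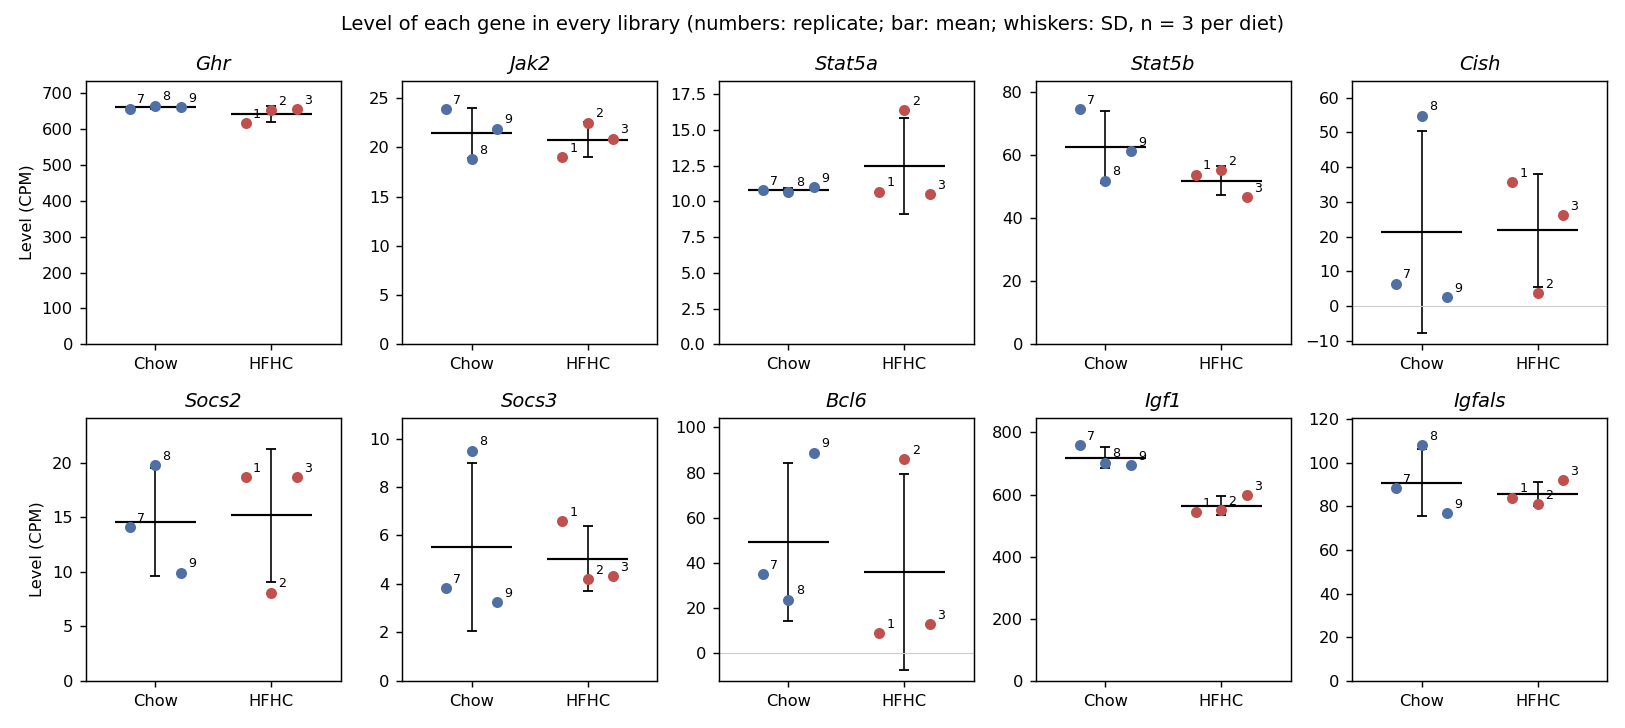
Level of each of the 10 genes in CPM (vertical axes, linear) in every Chow (blue) and HFHC (red) library, numbered by replicate, with the mean as a bar and the SD as whiskers (n = 3 per diet). Igf1 is lower in all 3 HFHC libraries than in all 3 Chow libraries, whereas Cish runs from 2.45 to 54.8 CPM within Chow.

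Igf1 (chr10:87858265-87937042 on mm10, plus strand) stood at 543, 549 and 598 CPM in HFHC replicates 1, 2 and 3, and at 759, 703 and 695 CPM in Chow replicates 7, 8 and 9. Every HFHC library was below every Chow library. The log2 fold change was -0.35 ± 0.08 (SE; 95% interval -0.54 to -0.17), and the level fell by 21.6% (interval -31.1% to -10.8%), with an adjusted p of 0.0376 by edgeR's quasi-likelihood test. In bulk liver, fewer hepatocytes and less Igf1 RNA per hepatocyte cannot be told apart. Of the 10 hepatocyte markers, 3 (Apob, Cps1 and Tat) were called lower and 0 higher, beside 6.67% of all tested genes called in either direction. The markers had a median log2 fold change of -0.28, with 6 negative and 4 positive (Alb 0.02, Cyp2e1 0.08, Ttr 0.10 and Apoa1 0.29). Their part in the Igf1 result was not tested. The call did not hold in every fit: Igf1 was lower in all 14 alternative fits and called in 5, with adjusted p values from 0.00515 to 0.467. The call was lost on leaving out HFHC replicate 1 (adjusted p = 0.128) or 2 (0.112) or Chow replicate 7 (0.157), 8 (0.0555) or 9 (0.0828). With a GC and length trend taken out, the log2 fold change was -0.12 (adjusted p = 0.393); the longest Igf1 transcript has 38.0% GC and 7052 bases, against medians of 49.2% and 3076 bases.

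Paxbp1 and Ptar1 had the patterns most like that of Igf1 over the 6 libraries, with root mean square differences of 0.02 and 0.03 in centred log2 CPM among 9158 genes searched. Ptar1 stood at 18.3, 19.0 and 19.9 CPM in HFHC and at 25.4, 23.0 and 23.8 CPM in Chow. The Ptar1 call (adjusted p = 0.0445) was lost on leaving out any library (0.0522 to 0.170), and Paxbp1 was not called (0.0584). Over the alternative fits that kept all libraries, the log2 fold change of Ptar1 ran from -0.34 to -0.04 (adjusted p 0.0439 to 0.807). Like Igf1, both genes had every HFHC library below every Chow library, which follows from their choice by likeness to Igf1.

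Igfals (chr17:24865997-24882010, plus strand), which encodes the acid-labile subunit of the circulating IGF complex, stood at 83.9, 81.0 and 91.9 CPM in HFHC and at 88.3, 108 and 76.9 CPM in Chow. Chow libraries held both the highest and the lowest value, and the HFHC libraries lay between them. The log2 fold change was -0.09 ± 0.12 (interval -0.36 to 0.18; adjusted p = 0.726), and 0.06 without Chow replicate 8.

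Ghr (chr15:3317760-3583492, minus strand), the growth hormone receptor, stood at 616, 653 and 656 CPM in HFHC and at 657, 665 and 661 CPM in Chow. The diets only just failed to overlap, and replicate 1 was the lowest of the HFHC mice. The difference was -0.04 ± 0.08 on the log2 scale (adjusted p = 0.796), or -2.90% with an interval of -13.7% to 9.25%. Its spread within diets, an SD of 0.04 in log2 CPM, was below that of 98.1% of the 9789 genes at 5 CPM or more.

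Jak2 (chr19:29251828-29313080, plus strand), the kinase that the receptor holds, stood at 19.0, 22.5 and 20.9 CPM in HFHC and at 23.9, 18.8 and 21.9 CPM in Chow. The diets overlapped throughout. HFHC differed from Chow by -0.05 ± 0.11 in log2 (interval -0.30 to 0.20; adjusted p = 0.847).

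Stat5b (chr11:100780731-100850724, minus strand), known as the main STAT5 of hepatocytes, stood at 53.7, 55.1 and 46.6 CPM in HFHC and at 74.4, 51.8 and 61.2 CPM in Chow. Chow replicates 7 and 9 were above every HFHC library, and Chow replicate 8 was not. The difference in log2 was -0.27 ± 0.13 (interval -0.56 to 0.02; adjusted p = 0.259), -0.38 without Chow replicate 8 (0.0785) and -0.12 without Chow replicate 7 (0.659). Its neighbour Stat5a (chr11:100859351-100885169, plus strand) stood at 10.7, 16.4 and 10.5 CPM in HFHC and at 10.8, 10.7 and 11.0 CPM in Chow. HFHC replicate 2 was high and the other libraries lay between 10.5 and 11.0 CPM, and the log2 fold change was 0.21 ± 0.17 (interval -0.17 to 0.58; adjusted p = 0.521).

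Stat5a and Stat5b are near-identical in sequence, and both had estimated counts that were not whole in all 6 libraries. Reads may have been shared between them, and each level is uncertain. Stat5a also shares 72 exonic bases (1.01% of its own) with Stat3 on the opposite strand. Summed, Stat5a and Stat5b stood at 64.3 ± 7.25 CPM on HFHC against 73.3 ± 11.4 CPM on Chow (SD, n = 3 each), a difference of -8.98 CPM (exact two-sided permutation test over 20 assignments, p = 0.400). That difference was -3.03 CPM without Chow replicate 7 and -14.4 CPM without Chow replicate 8. The log2 ratio of Stat5b to Stat5a was 2.08 ± 0.30 in HFHC and 2.51 ± 0.26 in Chow (exact permutation p = 0.200). The smallest p this design can give is 0.1. Ghr and Socs2 likewise had fractional values in all 6 libraries, Igf1 and Igfals in 5, Cish in 1, and Jak2, Socs3 and Bcl6 in 0.

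**Figure D2:**
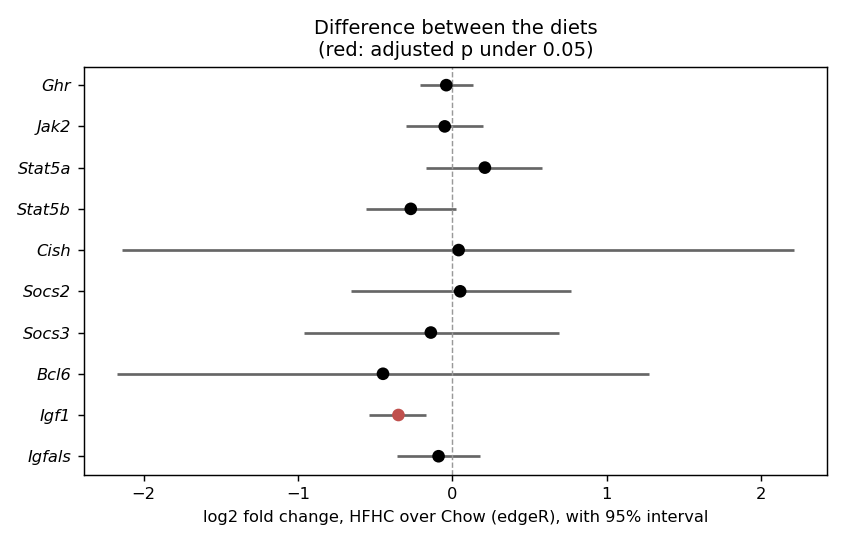
Log2 fold change of HFHC over Chow for each of the 10 genes (points) with the 95% interval from edgeR (lines), red where the adjusted p is below 0.05. Igf1 at -0.35 has an interval that stays below 0, and the intervals of Cish (-2.14 to 2.21) and Bcl6 (-2.17 to 1.27) are the widest.

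Cish (chr9:107296026-107302784, plus strand), a SOCS-family inhibitor that STAT5 induces within a pulse of signalling, stood at 35.6, 3.75 and 26.1 CPM in HFHC and at 6.41, 54.8 and 2.45 CPM in Chow. It was high in HFHC replicates 1 and 3 and in Chow replicate 8, and low in HFHC replicate 2 and in Chow replicates 7 and 9. The highest library was 9.50-fold above the lowest within HFHC and 22.3-fold within Chow, and the counts behind them ran from 65 to 1510. Its SD within diets was 2.04 in log2 CPM, the largest of the 9789 genes at 5 CPM or more, whose median was 0.12.

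The arithmetic diet means of Cish were nearly equal, at 21.8 ± 16.3 CPM on HFHC and 21.2 ± 29.1 CPM on Chow. The log2 fold change was 0.04 ± 0.97 by edgeR (adjusted p = 0.988) and 0.64 by limma-voom (adjusted p = 0.783). The edgeR interval, -2.14 to 2.21, leaves room for a large difference in both directions. Without Chow replicate 8 the log2 fold change was 2.30 (adjusted p = 0.115). Annotated transcripts on the opposite strand, Gm17041 and Gm17040, cover 7.46% and 4.07% of the exonic bases of Cish, and the strand setting of the counts is not given in the sources used here.

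Socs2 (chr10:95385362-95417180, minus strand), the SOCS gene whose loss is known to enlarge mice, stood at 18.7, 8.10 and 18.7 CPM in HFHC and at 14.1, 19.8 and 9.92 CPM in Chow. HFHC replicates 1 and 3 and Chow replicate 8 were again the highest libraries, and HFHC replicate 2 and Chow replicate 9 the lowest. HFHC differed from Chow by 0.05 ± 0.32 in log2 (interval -0.66 to 0.77; adjusted p = 0.948). Its highest library was 2.45-fold above its lowest, a smaller span than that of Cish.

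Socs3 (chr11:117966079-117970047, minus strand), best known as a target of STAT3 downstream of interleukin 6, stood at 6.58, 4.19 and 4.33 CPM in HFHC and at 3.83, 9.50 and 3.24 CPM in Chow. Chow replicate 8 and HFHC replicate 1 were the highest, and the others lay between 3.24 and 4.33 CPM. The difference in log2 was -0.14 ± 0.37 (interval -0.96 to 0.69; adjusted p = 0.868), and 0.52 without Chow replicate 8 (adjusted p = 0.212).

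Bcl6 (chr16:23965052-23988852, minus strand) stood at 8.91, 86.0 and 13.0 CPM in HFHC and at 35.1, 23.7 and 88.9 CPM in Chow. HFHC replicate 2 and Chow replicate 9 were the highest, the same libraries in which Cish was lowest. The span was 9.66-fold within HFHC and 3.76-fold within Chow. Between the diets, Bcl6 differed by -0.45 ± 0.77 in log2 (interval -2.17 to 1.27, adjusted p = 0.786). The log2 fold change was -0.96 by limma-voom (adjusted p = 0.509). Without HFHC replicate 2 it was -2.16 (adjusted p = 0.0612). By SD within diets, 4 genes exceeded Bcl6 (1.42), 70 exceeded Socs3 (0.64) and 84 exceeded Socs2 (0.60), so that 4 of the 10 genes were among the 100 with the largest values.

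**Figure D3:**
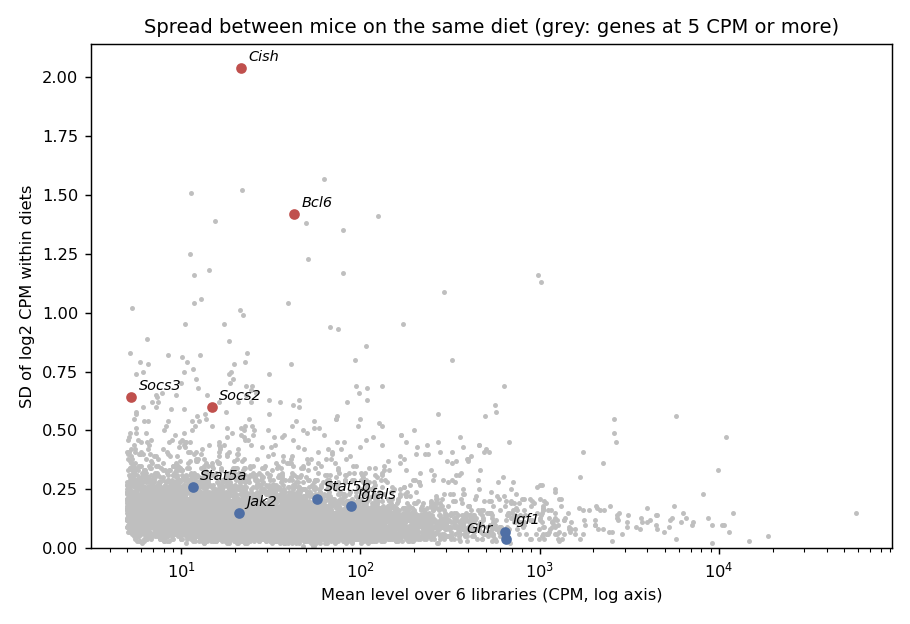
SD of log2 CPM within diets (vertical axis) against the mean level over 6 libraries (CPM, log axis) for the 9789 genes at 5 CPM or more (grey). Cish at 2.04 is above every other gene, Bcl6 is at 1.42, and Ghr and Igf1 are near the bottom at 0.04 and 0.07.

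Measured from the mean of its own diet, Cish deviated by 1.23, -2.01 and 0.78 in HFHC replicates 1, 2 and 3, and by -0.57, 2.52 and -1.95 in Chow replicates 7, 8 and 9 (log2). Bcl6 deviated by -1.27, 2.00 and -0.73, and by -0.26, -0.83 and 1.08. The sign was opposite to that of Cish in 5 of the 6 libraries, and the same in Chow replicate 7. Deviations within a diet are taken from their own mean, so the 6 signs are not independent.

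For the following genes, chosen after the values were seen, the pattern over the 6 libraries was compared with that of Cish or Bcl6. Onecut1, a hepatocyte transcription factor gene, was the most like Cish (root mean square difference 0.46 in centred log2 CPM) and stood at 105, 23.5 and 91.2 CPM in HFHC and at 19.2, 126 and 10.5 CPM in Chow. Phlda1 came next (0.62). Onecut1 had fractional values in all 6 libraries. Onecut1 was high in the same 3 libraries as Cish (log2 fold change 0.49 ± 0.81, adjusted p = 0.777, but 2.31 with 0.0387 without Chow replicate 8), and its SD within diets was second only to that of Cish. Igfbp1, which encodes an insulin-repressed IGF binding protein, was closest to the mirror image of Cish (0.75), followed by Bcl6 (0.86). Igfbp1 stood at 14.9, 45.9 and 24.9 CPM in HFHC and at 95.8, 12.0 and 104 CPM in Chow, lowest in the library where Cish was highest. Closest to Bcl6 were Arl4d (0.81) and Prox1 (0.85), and closest to its mirror image were Rgs3 (0.65) and Onecut1 (0.73). Of these, Prox1 was called lower without HFHC replicate 2 (-0.70, adjusted p = 0.0412) and Rgs3 higher without Chow replicate 8 (1.47, 0.0467), and neither with all libraries. These are descriptions over 6 libraries, with no test.

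**Figure D4:**
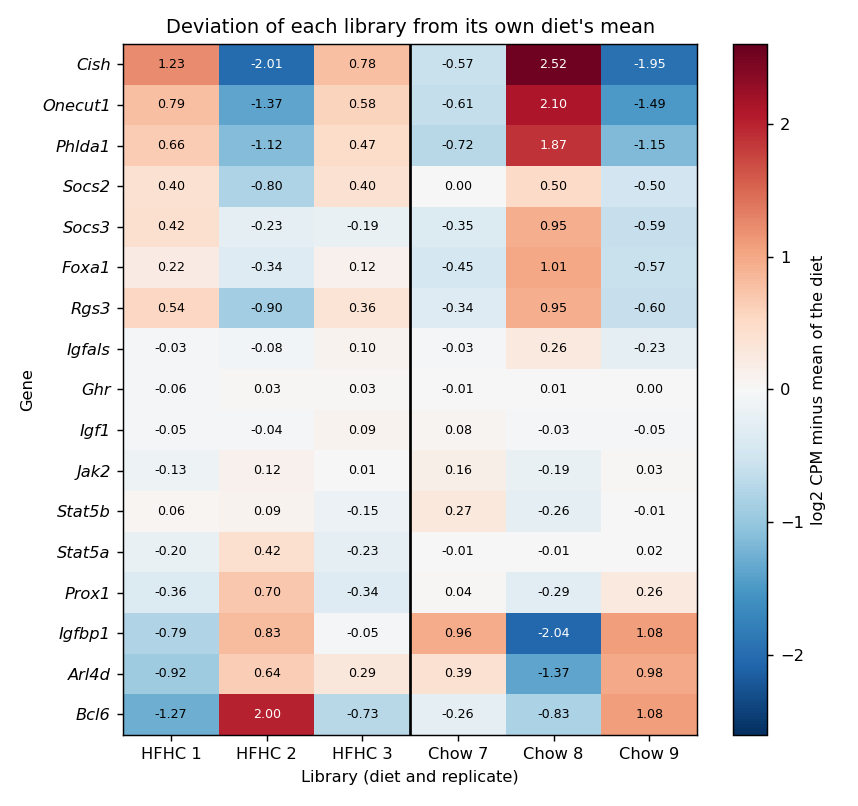
Deviation of log2 CPM from the mean of the library's own diet (colour and printed value) for the 10 genes and for the genes most like or opposite to Cish or Bcl6, with Foxa1, by library. Cish and Onecut1 are above the mean in HFHC 1, HFHC 3 and Chow 8, and Ghr and Igf1 stay within 0.09 of it.

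An index of clock phase was taken as Per2, Per3 and Dbp (averaged in log2 CPM) less Arntl, Npas2 and Clock, centred over the libraries. It was 0.46, 1.19 and 1.48 in HFHC and -2.09, 0.51 and -1.54 in Chow. Chow replicate 8 was thus nearer to the HFHC libraries than to the other Chow libraries. Within Chow, the library with the highest Cish, replicate 8, had the highest index. Within HFHC, the library with the lowest Cish, replicate 2, had the middle index. Whether Cish and the index are linked was not tested. With the index as a covariate, the log2 fold change of Cish was -1.16 and that of Igf1 was -0.33 (adjusted p = 0.467), and 65 genes were called in all. Of the index genes, Dbp was called higher in HFHC by edgeR (log2 fold change 1.26, adjusted p = 0.0306). Clock was called lower (-0.60, adjusted p = 0.00449), and the rest were not called. The index is thus built in part from genes that differ between the diets. Diet and the index largely coincide, so their parts cannot be told apart in these animals.

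Per kilobase of exons, Ghr (71.9 CPM per kb over all libraries) and Igf1 (64.7) were the highest of the 10 genes, followed by Igfals (27.9), Stat5b (10.3), Bcl6 (6.36), Jak2 (4.21), Cish (3.35), Socs3 (1.83), Stat5a (1.64) and Socs2 (1.56). Over both diets, the libraries of Ghr and Igf1 overlapped in level, whereas Igfals lay below both and above Stat5b in every library. In HFHC, Ghr stood at 70.9 ± 2.47 CPM per kb, above Igf1 at 56.9 ± 3.04. In Chow, Ghr stood at 73.0 ± 0.453 and Igf1 at 72.6 ± 3.52 CPM per kb. From Stat5b downward each gene overlapped with at least 1 neighbour in this order, and Bcl6 and Cish, the widest in range, spread over the levels of several others.

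Among the other IGF genes (receptors, binding proteins and proteases), 10 of 15 were tested, 1 was called lower and 0 higher, and the median log2 fold change was -0.22. The called gene was Igfbp2, which encodes a circulating IGF carrier and had fractional values in all 6 libraries. It stood at 175, 124 and 163 CPM in HFHC and at 419, 214 and 336 CPM in Chow, so every HFHC library was lower, and it fell by 1.07 ± 0.22 on the log2 scale (adjusted p = 0.0220). The call was lost without HFHC replicate 2 (0.0726) or 3 (0.0614) or Chow replicate 7 (0.0727) or 9 (0.0643). With the clock index as a covariate, the log2 fold change of Igfbp2 was -0.32 (0.632). Igfbp1 differed by -1.31 ± 0.65 (adjusted p = 0.274), and by -1.80 without Chow replicate 8 (adjusted p = 0.0158).

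Of 29 other cytokine receptor and JAK-STAT genes, 28 were tested. Of these, 1 was called higher and 1 lower, or 7.14% beside 6.67% of all tested genes, with a median of -0.10. Pias2, a SUMO ligase gene of the family that inhibits STATs, fell by 0.33 on the log2 scale, at 19.5 ± 0.334 against 24.4 ± 0.688 CPM (adjusted p = 0.0394). The Pias2 call was lost whichever library was left out (adjusted p 0.0731 to 0.136). Named after their values were seen, Prlr, the receptor most closely related to Ghr, stood at 81.5 ± 12.8 against 125 ± 28.2 CPM (adjusted p = 0.0624, and 0.0102 without Chow replicate 8), Stat3 at 82.4 ± 7.77 against 101 ± 4.26 CPM (0.0823) and Socs4 at 33.4 ± 1.45 against 41.3 ± 3.47 CPM (0.0638). All 3 had every HFHC library below every Chow library, and none was called by edgeR with all libraries. They were picked with this known. Of the 28 tested genes, 8 in all did not overlap with HFHC lower and 1 with HFHC higher. Over all tested genes, the shares were 14.3% and 13.5%.

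Of 15 transcription factor genes that share hepatocyte enhancers with STAT5, 14 were tested. Of these, 0 were called higher and 1 lower, or 7.14% beside 6.67% of all tested genes, with a median of 0.04. Without Chow replicate 8, 4 were called higher and 0 lower; the 4 were Onecut1, Foxa1, Foxa2 and Cebpa. Cebpa, another hepatocyte factor gene, stood at 424 ± 40.8 CPM on HFHC against 319 ± 52.3 CPM on Chow (adjusted p = 0.0841, and 0.0149 without Chow replicate 8). Esr1, the estrogen receptor gene, stood at 14.1 ± 1.21 CPM on HFHC against 19.5 ± 2.68 CPM on Chow, with an adjusted p just under the threshold, and 13 of 14 alternative fits did not call it, among them every fit that left out a library (0.0522 to 0.170). Foxa1 and Foxa2, pioneer factor genes chosen after their values were seen, were highest among the Chow libraries in replicate 8, as Cish was. Foxa2 stood at 52.5, 25.8 and 35.9 CPM in HFHC and at 17.1, 39.4 and 15.8 CPM in Chow (adjusted p = 0.309, and 0.0213 without Chow replicate 8). Foxa1 stood at 30.4, 20.5 and 28.3 CPM in HFHC and at 16.7, 45.9 and 15.3 CPM in Chow (adjusted p = 0.980, and 0.0288 without Chow replicate 8).

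Genes with a known sex bias in mouse liver are the best-known readout of the growth hormone pulse pattern. Of 24 genes known as higher in males, all were tested. Of these, 3 were called lower and 2 higher, or 20.8% beside 6.67% of all tested genes, with a median of -0.34. Gstp1, a glutathione transferase gene, stood at 366 ± 73.8 CPM in HFHC against 1397 ± 50.7 CPM in Chow, and fell by 1.93 ± 0.14 on the log2 scale (adjusted p = 0.000147). Cspg5 (1.47 ± 0.374 against 3.38 ± 0.478 CPM, adjusted p = 0.0150) and the complement gene C6 (256 ± 37.7 against 359 ± 31.1 CPM, 0.0423) were also called lower. Cyp2u1 (57.9 ± 1.97 against 43.2 ± 2.79 CPM, 0.0155) and Gna14 (8.86 ± 3.40 against 4.22 ± 0.841 CPM, 0.0416) were called higher. Gstp1 was called with any 1 library left out; Cspg5 was lost without Chow replicate 7 (0.0605), Cyp2u1 without Chow replicate 7 (0.0718) or 9 (0.0696), Gna14 without any library other than HFHC replicate 2 (0.0594 to 0.131), and C6 without any (0.0576 to 0.146). Over the whole list, 18 log2 fold changes were negative and 6 positive, beside 7523 negative and 7373 positive among all 14896 tested genes. The list includes several Mup genes and both Cyp4a12a and Cyp4a12b, so its signs may not be independent. With the clock index as a covariate, Gstp1 was the single gene of the list still called lower (0.00734) and 0 were called higher; DESeq2 called 7 lower. Of textbook male genes chosen after their values were seen, Cyp2d9 (1214 ± 45.7 against 1279 ± 63.8 CPM, 0.656), Cyp4a12a (285 ± 40.2 against 271 ± 30.5 CPM, 0.768) and Slco1a1 (697 ± 75.1 against 768 ± 69.6 CPM, 0.498) were not called. Cyp4a12b, a close relative of Cyp4a12a, was not called (83.9 ± 24.1 against 118 ± 9.28 CPM, 0.121). Gstp1, C6, Slco1a1, Cyp4a12a and Cyp4a12b had fractional values in all 6 libraries, Cyp2d9 in 5 and Selenbp2 in 3. Their reads may have been shared with other genes. Others, picked for their lower HFHC means, were not called either: the bile acid hydroxylase gene Cyp7b1 (250 ± 71.6 against 431 ± 101 CPM, 0.0578), Selenbp2 (382 ± 212 against 886 ± 293 CPM, 0.0890) and the urinary protein gene Mup20 (5534 ± 744 against 7073 ± 296 CPM, 0.102). Without HFHC replicate 3, Cyp7b1 (0.0242) and Selenbp2 (0.0286) were called lower, and so was Cyp7b1 without Chow replicate 9 (0.0440).

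Of 32 genes known as higher in females, 17 were tested. Of these, 5 were called higher and 0 lower, beside 3.38% and 3.30% of all tested genes, with a median of 0.20. The tested genes are those with enough counts in some libraries of these males, so their count is no measure of the whole list. A gene nearly silent in Chow can pass the filter through its HFHC libraries alone, which favours higher calls and a positive median. In Chow, Cyp2b9 stood at 0.228, 0.399 and 0.490 CPM. Slc22a27 stood there at 0.0379, 0.145 and 0.339 CPM, the first below the floor of 3 counts. The steroid hydroxylase gene Cyp17a1 rose from 3.27 ± 0.516 to 17.0 ± 6.41 CPM (log2 fold change 2.38 ± 0.28, adjusted p = 0.00195), and Cyp2b9 from 0.372 ± 0.133 to 3.34 ± 1.76 CPM (3.15 ± 0.45, 0.00489). Abcd2, a peroxisomal fatty acid transporter gene, rose from 7.28 ± 0.989 to 21.5 ± 7.88 CPM (1.56 ± 0.25, 0.00837). The other 2 were Slc22a27, at 0.174 ± 0.153 CPM on Chow against 1.51 ± 1.05 CPM on HFHC (0.0272), and Hamp2, at 9.84 ± 1.09 against 22.1 ± 6.54 CPM (0.0123). Slc22a27 was lost without HFHC replicate 2 (0.0589) or Chow replicate 7 (0.0957) or 8 (0.0544), and Hamp2 without Chow replicate 7 (0.0555). Values were fractional in 4 libraries for Slc22a27 and in 3 for Hamp2, so reads may have been shared with other genes. With the clock index as a covariate, 0 genes of the list were called higher, and the log2 fold changes of Cyp17a1, Cyp2b9 and Abcd2 were 1.88 (0.207), 2.47 (0.285) and 1.39 (0.329). Without HFHC replicate 2 or 3, 1 and 2 genes of the list were called lower. Cyp17a1, Cyp2b9, Abcd2 and Slc22a27 were highest, and Hamp2 lowest among the HFHC libraries, in HFHC replicate 2, where Bcl6 was high and Cish low. In Chow replicate 9, where Bcl6 was also high and Cish low, all 5 genes, Hamp2 included, were highest among the Chow libraries. A link of these genes to Bcl6 or Cish was not tested.

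Of 18 genes induced by interleukin 6 and STAT3, the route best known for Socs3, all were tested. Of these, 1 was called higher and 1 lower, or 11.1% beside 6.67% of all tested genes, with a median of -0.09. Saa2, an acute phase gene, rose from 7.04 ± 0.448 to 22.8 ± 1.36 CPM (log2 fold change 1.70 ± 0.10, adjusted p = 4.53e-05). Its neighbour Saa1 stood at 50.4 ± 3.67 CPM on HFHC against 37.0 ± 10.3 CPM on Chow and was not called (0.147). Both had fractional values in all 6 libraries, so reads may have been shared between Saa1 and Saa2. Lbp, the lipopolysaccharide binding protein gene, fell from 62.9 ± 3.70 to 39.2 ± 5.45 CPM (-0.68 ± 0.11, 0.00770). With the clock index as a covariate, Saa2 was called (1.74, 0.00585) and Lbp was not (-0.68, 0.231).

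Markers of other liver cells were present at low levels beside those of hepatocytes. Summed over 8 genes each, Kupffer cell markers stood at 271 to 332 CPM in HFHC and 227 to 268 CPM in Chow, stellate cell markers at 291 to 317 and 287 to 340 CPM, and sinusoidal endothelial markers at 308 to 335 and 335 to 343 CPM. None of the tested markers of these cells, of cholangiocytes or of lymphocytes and neutrophils was called by edgeR. Of the 8 Kupffer cell markers, 4 did not overlap with HFHC higher and 0 with HFHC lower, with a median log2 fold change of 0.22. Over all tested genes, the shares were 13.5% and 14.3%. No marker in the table was at 0 in all libraries.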

How the data were processed

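The authors deposited estimated counts per gene (expected counts) without normalization, 22.4% of them fractional (tolerance 0.01). The submitters' processing notes name mm10, STAR 2.7.3a and Partek 9. The counting's strand setting is not given in the sources used here, nor is its annotation. Per the labels' protocols, libraries were stranded, rRNA-depleted total RNA read as 75-base pairs. Coordinates are those of the table with 1 base taken off the end, since 19892 of 19892 rows matched to GENCODE M21 ended 1 base past it.

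Expected counts were rounded and filtered with filterByExpr (minimum count 10), leaving 14896 genes. The comparison used edgeR 4.0.16 in R 4.3.3 with TMM factors (0.9705 to 1.0216), the quasi-likelihood F test and Benjamini-Hochberg adjustment over all tested genes, threshold 0.05, without covariates. CPM used TMM-scaled library sizes, and 1 read stood for 0.0318 to 0.0379 CPM. Spread and likeness used log2 CPM with a prior count of 1. The fit was tested on simulated data. Alternatives were other size factors, no count filter, DESeq2 1.42.0, limma-voom (limma 3.58.1), each replicate left out, a clock index or Cish as a covariate, and a GC and length trend taken out.

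The genes, lists and tests were chosen with earlier results of these data known. From each list up to 3 called genes in the direction with more calls, and up to 2 in the other, were named by smallest p, and for Igf1, the called gene of the axis, the 2 most alike genes at 5 CPM or more; any others were chosen after their values were seen. A result of the JAK-STAT list that this rule named is not reported here.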

Additional observations from a re-analysis of the deposited data

How the results depend on the processing

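The comparisons rest on 3 mice per diet, and diet cannot be told apart from the clock index. No paired analysis was run because the labels give no litter of each animal and no pairing. Of 139 alternative values for the 10 genes, 117 kept their direction and 22 reversed, and 9 lost a call, all of Igf1. For 36 other named genes, the alternatives gave 81 lost calls, 20 gained and 20 reversed. The causes were not tested. Leaving out 1 library at a time, genes called higher ranged from 207 to 527 and lower from 154 to 553 (lowest without Chow replicate 7, highest without Chow replicate 8), members of the axis called lower from 0 to 1, other pathway genes called higher from 5 to 12 (9 with all libraries) and lower from 2 to 8 (7 with all). With the clock index as covariate these counts were 35, 30, 0, 1 and 1. The axis count was also 0 with upper-quartile factors, with the trend on GC and length removed and with Cish as a covariate, an alternative chosen after seeing the data; other pathway genes called lower were 4 with upper-quartile factors and 11 with DESeq2. The log2 fold changes below reversed. With the clock index they were 0.14 for Jak2, 0.11 for Stat5b, -1.16 for Cish, -0.32 for Socs2, 0.26 for Bcl6, -0.69 for Onecut1, -1.12 for Phlda1, 1.36 for Igfbp1, 0.70 for Arl4d, -0.83 for Foxa1, -0.09 for Cyp4a12a and 0.01 for Slco1a1. With the trend on GC and length removed they were 0.05 for Ghr, 0.04 for Jak2, -0.05 for Phlda1 and -0.05 for Foxa1. With Cish as covariate they were -0.16 for Socs2 and -0.02 for Foxa1. Leaving out 1 library gave -0.13 to 0.03 for Jak2, -0.03 to 0.32 for Stat5a, -0.51 to 2.30 for Cish, -0.16 to 0.35 for Socs2, -0.41 to 0.52 for Socs3, -2.16 to 0.29 for Bcl6, -0.19 to 0.06 for Igfals, -0.40 to 1.62 for Phlda1, -0.03 to 0.18 for Cyp4a12a and -0.25 to 0.73 for Foxa1.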
